A study of Mus musculus with 47 samples.

Results

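The proteasome genes described here are the 45 genes on the array whose symbol is Psma, Psmb, Psmc, Psmd, Psme, Psmf or Psmg followed by a number, out of 17097 genes with a probe set. Each was represented by 1 probe set, the one with the highest mean over all 47 arrays. Of the 45 members, 42 passed a filter on low values (a mean of at least 5.80 on the log2 scale) and were tested among 10258 genes. Psma8, Psmb11 and Psmg3 lay under the filter and were not tested. By the part of the proteasome they belong to, the members fell into 8 genes of the alpha ring (7 tested), 7 constitutive genes of the beta rings (7 tested), 4 inducible or tissue-restricted beta genes (3 tested), 5 ATPases of the base (5 tested), 11 non-ATPase genes of the regulatory particle (11 tested), 4 genes of activators and an inhibitor (4 tested) and 6 assembly chaperones (5 tested). Psmc6, Psmd10 and Psme4 were not analysed here.

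Expression was measured on arrays in muscle stem cells, also called satellite cells, from skeletal muscle of wild type female C57B6/J mice aged 15 weeks, in order to follow expression over the day under a pair of diets. The mice received a high-fat diet or its matched control diet without restriction for 7 weeks, from 8 weeks of age. Collection took place at 6 zeitgeber times (ZT, in hours and by convention counted from lights on), 4 h apart from ZT0 to ZT20, with 4 mice in each of the 12 groups except high-fat ZT16, which held 3. This gave 24 control and 23 high-fat mice. All mice of a time point, of both diets, were collected on a single day, so that time and day cannot be told apart within a diet, whereas each comparison of the diets at a time lay within 1 day. How the cells were isolated is not given in the sources used here.

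The proteasome is the protease that degrades proteins tagged with ubiquitin in the cytosol and nucleus. Its barrel-shaped core is built from rings of alpha subunits, which gate the entrance, around rings of beta subunits, of which Psmb5, Psmb6 and Psmb7 carry the active sites. A regulatory particle caps the barrel: its base of ATPases unfolds substrates, and its non-ATPase subunits form the scaffold and the lid, bind ubiquitin chains and remove them. Interferon-induced beta subunits (Psmb8, Psmb9 and Psmb10) can replace the catalytic ones to form the immunoproteasome, and other caps, such as the Psme1 and Psme2 ring, can replace the regulatory particle. In satellite cells, proteasome function is known to be needed for survival and for muscle regeneration, and transcription of the subunits is known to be raised together by the transcription factor NFE2L1 when proteasome activity is short.

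Promoters are shown for the 4 members whose high-fat and control levels differed at ZT16 and whose diet difference also changed over the day: Psmb3 and Psmb6 of the beta ring, and Psmd1 and Psmd11 of the regulatory particle. Of the 4, Psmb3 alone also passed in the diet difference averaged over the day, and both calls of Psmb6 were lost without some of the mice, as given below. Each window holds the 250 bases before the transcription start in RefSeq (GRCm38.p6), 5′ to 3′ on the gene's strand, which is the plus strand for all 4. The windows lie at chr11:97703184-97703433 (Psmb3), chr11:70525107-70525356 (Psmb6), chr1:86064369-86064618 (Psmd1) and chr11:80428365-80428614 (Psmd11). Capitals mark every match, on either strand, to the antioxidant response element core (TGACNNNGC), the CCAAT box, the GC box (GGGCGG), the interferon-stimulated response element core or the ETS site (CCGGAAG); no 2 matches in these windows overlapped.
Psmb3: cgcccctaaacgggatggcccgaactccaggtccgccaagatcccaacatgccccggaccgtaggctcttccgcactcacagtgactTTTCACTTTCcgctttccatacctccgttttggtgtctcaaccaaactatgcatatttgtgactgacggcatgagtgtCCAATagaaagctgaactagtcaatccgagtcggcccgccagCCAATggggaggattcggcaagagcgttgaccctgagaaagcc
Psmb6: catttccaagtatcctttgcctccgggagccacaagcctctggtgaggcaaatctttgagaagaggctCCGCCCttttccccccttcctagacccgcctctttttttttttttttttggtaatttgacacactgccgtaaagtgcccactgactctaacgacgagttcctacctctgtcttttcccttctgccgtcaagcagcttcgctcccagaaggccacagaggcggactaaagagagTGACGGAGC
Psmd1: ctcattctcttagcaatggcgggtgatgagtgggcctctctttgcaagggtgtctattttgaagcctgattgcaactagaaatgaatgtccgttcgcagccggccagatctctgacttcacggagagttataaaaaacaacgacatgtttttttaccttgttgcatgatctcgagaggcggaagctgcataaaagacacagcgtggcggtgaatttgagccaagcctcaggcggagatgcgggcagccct
Psmd11: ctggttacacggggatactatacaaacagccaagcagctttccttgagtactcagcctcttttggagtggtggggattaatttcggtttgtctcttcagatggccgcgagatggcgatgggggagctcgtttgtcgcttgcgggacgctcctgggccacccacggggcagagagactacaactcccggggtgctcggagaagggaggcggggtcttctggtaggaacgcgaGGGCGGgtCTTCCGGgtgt

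No motif searched stood in all 4 windows. Psmb3 held a pair of CCAAT boxes and 1 match to the interferon-stimulated response element core, on the other strand. Psmb6 held TGACGGAGC, 9 bases before its start, and a GC box on the other strand. Psmd11 also held a GC box and, on the other strand, an ETS site, and Psmd1 held no match to any of the 5. Over all members, 37 of 45 had at least 1 window in the table, with 40 windows together. Letters of the ETS site stood in 11 of the 40 windows (27.5%), against 6.91% of all 32851 windows of the same length, and those of the GC box in 20 (50.0%), against 32.7%. The core TGACNNNGC stood in 4 windows (10.0%), those of Psmb5, Psmb6, Psmd12 and Psmd9, against 10.2% of all windows, and CCAAT in 13 (32.5%), against 33.8%. The interferon-stimulated response element core stood in 3 (7.50%), of Psmb3, Psmd4 and Psmd9, against 2.98%. Of 6 other motifs searched, NRF1 half-sites stood in 6 windows (15.0%), against 4.98%, and the E-box CACGTG in 4 (10.0%), those of Psma4, Psmb10, Psmd9 and Psme3, against 6.02%. The cAMP response element TGACGTCA and the D-box TTATGNAA stood in none, against 1.55% and 3.07%. The STAT site TTCNNNGAA stood in 2 (5%), against 7.02%, and the NF-kB core in 7 (17.5%), Psmb3 and Psmd11 among them, against 17.6%. A match in such a window is a description of the letters and no measure of binding.

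Marker genes were checked for the labelled cell type. All 10 satellite cell markers on the array were measured above the filter, with Pax7 at the 98.2 percentile of all genes, Myf5 at 97.3 and Sdc4 at 99.9. Of 15 immune markers, 5 were above the filter, among them Cd68 at the 85.4 percentile, Cd79a at 71.6 and H2-Aa at 68.1. Ptprc, the pan-leukocyte marker, stood at the 2.26 percentile, below nearly all other genes. Of 7 endothelial markers 4 were above the filter, with Tek at 90.4 and Kdr under it at 26.8. Of 10 myofibre markers 8 were above it, with Actn3 at 67.8 and Myh4 under it at 12.5. Some markers of other cells of muscle were measured high, among them Dpt of fibro-adipogenic cells (99.1 percentile), Notch3 of pericytes (99.1) and Pmp22 of Schwann cells (97.1). Others of the fibro-adipogenic and Schwann lists were lower. All 5 pericyte and smooth muscle markers on the array were above the filter, the lowest being Pdgfrb at the 76.2 percentile. Of 7 fibro-adipogenic markers on the array 4 were above the filter, with Pdgfra at the 9.81 percentile, Lum at 24 and Pi16 at 33.6 under it. S100b of Schwann cells stood at 40.6. Arrays of a group correlated with each other at 0.969 to 0.987, as the mean for each array.

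Over the day, the proteasome genes as a group were higher in the middle of the light phase and lower late at night on both diets. For each mouse the deviation of every tested member from the mean of its 12 group means was averaged. On the control diet this average was highest at ZT8, with 0.19 ± 0.07 (SD, n = 4), and lowest at ZT20, with -0.12 ± 0.07. The 4 control mice at ZT8 lay between 0.09 and 0.25, and the 4 at ZT20 between -0.19 and -0.03, with no overlap. On the high-fat diet the average was 0.08 ± 0.07 at ZT4 and 0.11 ± 0.10 at ZT8, and fell to -0.17 ± 0.05 (n = 3) at ZT16 and -0.15 ± 0.02 at ZT20. At ZT16 the control mice were at 0.05 ± 0.05, between -0.03 and 0.09, and all 3 high-fat mice were below them, between -0.22 and -0.12. Fewer cells of a type and less RNA per cell cannot be told apart in such bulk samples.

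**Figure D1:**
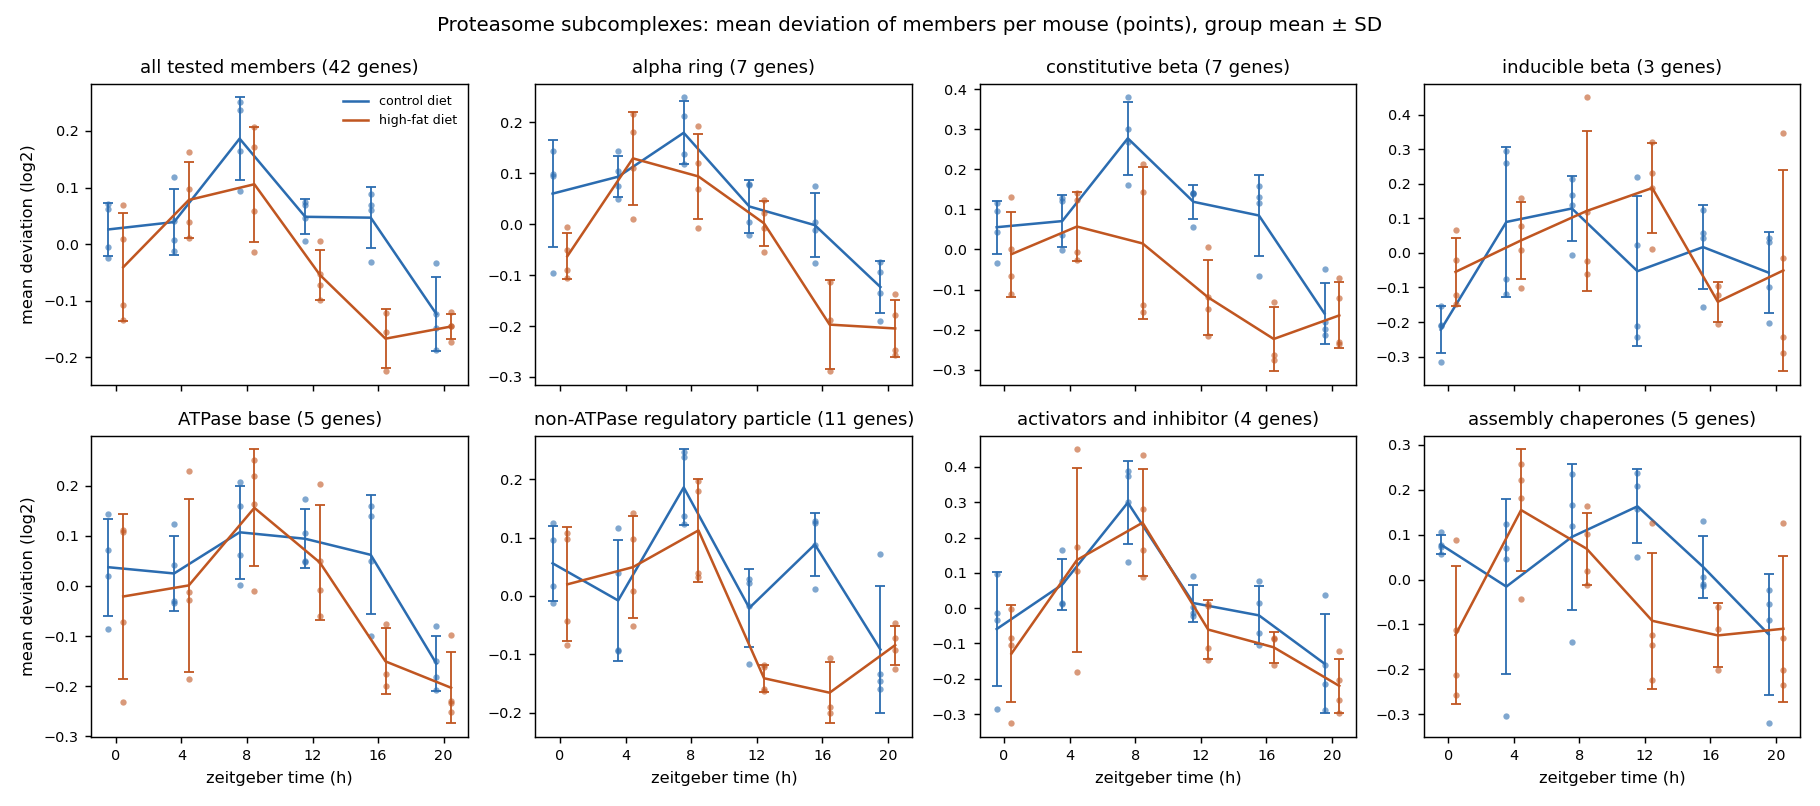
Mean deviation of the tested members from their own means (log2, y axis) by zeitgeber time (h, x axis), for all 42 tested members and for each subcomplex; points are mice, lines join group means and bars are SD. Control mice (blue) peak at 0.19 at ZT8 over all members, and high-fat mice (orange) drop to -0.17 at ZT16, where the control mice stay at 0.05.

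Counting members, 20 of 42 had their highest control mean at ZT8, against 22.6% of all genes tested, and 23 had their lowest at ZT20, against 16.2%. No member was highest at ZT20 on the control diet. On the high-fat diet, 15 members were highest at ZT4 and 15 at ZT8 (21.3% and 14.6% of all genes), while 17 were lowest at ZT16 and 15 at ZT20 (26.6% and 14.3%). Members of 1 complex were measured in the same mice, so these counts are not independent observations. Differences between the 6 times, tested without an assumed shape (limma, F test of the time means), passed an adjusted p of 0.05 in 19 of 42 members (45.2%) on the control diet, against 36.3% of all genes tested. On the high-fat diet, 23 members (54.8%) passed, against 40.1%.

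The members with the strongest time differences on the control diet were Psmd11, a scaffold subunit of the lid known to promote proteasome assembly when it is raised, Psmb7, the catalytic subunit with trypsin-like activity, Psma1 of the alpha ring and Psmc4, an ATPase of the base. Psmd11 spanned 0.67 on the log2 scale between ZT8 and ZT20 (adjusted p = 4.58e-06). Its 4 control mice stood at 9.68, 9.85, 9.87 and 10.03 at ZT8 and at 9.06, 9.18, 9.24 and 9.26 at ZT20. Its course had a second high at ZT16, where the control mice stood between 9.64 and 9.85, above all 4 control mice at ZT12, which lay between 9.13 and 9.29. Psmb7 spanned 1.18 between the same times (adjusted p = 2.6e-05), with 8.99, 9.40, 9.41 and 9.53 at ZT8 and 7.53, 8.31, 8.32 and 8.46 at ZT20. Psma1 spanned 0.77, from ZT4 to ZT20 (adjusted p = 0.000332), and Psmc4 0.51, from ZT0 to ZT20 (adjusted p = 0.000417). These 4 calls stood whichever mouse was left out.

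On the high-fat diet the leading members were Psmb3, a structural beta subunit, Psmd1 and Psmd12, scaffold subunits of the regulatory particle, and Psmd14, the deubiquitinase of the lid. Psmb3 spanned 0.70 between ZT8 and ZT16 (adjusted p = 1.95e-06), and its 3 mice at ZT16, at 9.44, 9.47 and 9.63, were below every other mouse of either diet, the next lowest being at 9.73. Psmd1 spanned 0.78 between the same times (adjusted p = 1.05e-05). Psmd12 was highest at ZT4 (8.15, 8.31, 8.39 and 8.46) and lowest at ZT12 (7.45, 7.61, 7.70 and 7.84), a span of 0.68 without overlap (adjusted p = 9.87e-05). Psmd14 spanned 0.49 from ZT8 to ZT20 (adjusted p = 0.000212). These 4 calls, too, stood whichever mouse was left out.

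Daily rhythms were then asked for as a fitted cosine of 24 h within each diet, with an F test in limma; the amplitude is the distance from the mean to the fitted peak. On the control diet, 7 of 42 members passed (16.7%), against 10.5% of all genes tested, and on the high-fat diet 19 (45.2%), against 16.9%. Of these, 5 passed on both diets, 2 on control alone and 14 on high-fat alone, which is not a test of a difference. The median amplitude over the 42 members was 0.12 on control and 0.18 on high-fat, beside 0.11 and 0.12 over all genes tested, and the amplitude was larger on high-fat in 28 of 42 members, against 56.0% of all genes. All 19 high-fat calls had their peak in the first 12 h, between 1.54 and 9.83 h with a median of 5.49 h; of all genes called on high-fat, 60.0% did. The 7 control calls peaked between 3.90 and 9.37 h, with a median of 7.61 h.

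Marker genes of the cells were rhythmic as well. Of 10 tested satellite cell markers, 3 passed on control, Pax7 (peak at 7.51 h, adjusted p = 0.0118), Cdh15 (8.24 h, 0.00439) and Cd34 (21.4 h, 0.00277), and 4 on high-fat, among them Cdh15 (7.53 h, adjusted p = 0.0194) and Chrdl2 (2.08 h, 0.000534). Of 5 pericyte and smooth muscle markers, Acta2 passed on both diets, with peaks at 0.93 h and 4.08 h, and Myh11 on high-fat. Of 8 myofibre markers 1 passed on each diet, of 4 endothelial markers 1 on control, of 5 immune markers 1 on high-fat, and of 4 fibro-adipogenic and 4 Schwann markers none on either in limma's cosine test. Their part in the daily course of the proteasome genes was not tested.

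**Figure D2:**
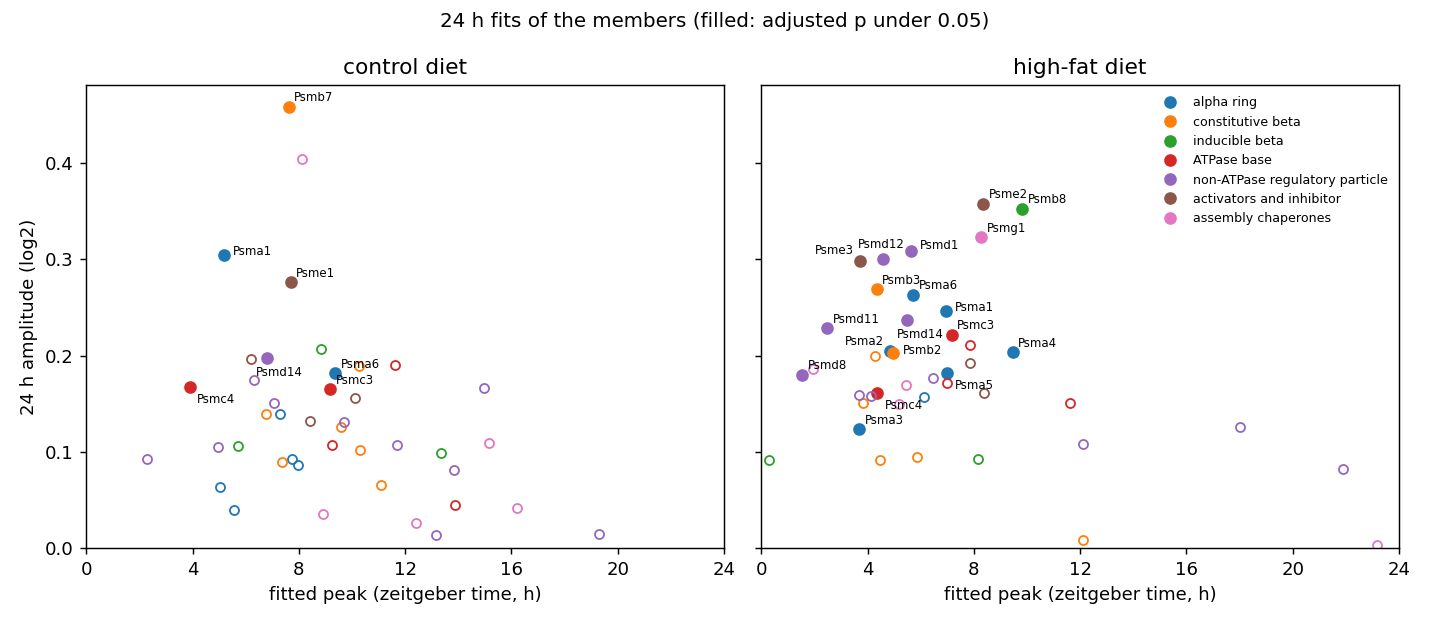
Amplitude of the fitted 24 h cosine (log2, y axis) against its peak (zeitgeber time in h, x axis) for the 42 tested members on the control diet (left) and the high-fat diet (right), coloured by subcomplex; filled points had an adjusted p under 0.05 in limma. The 7 filled control points lie between 3.90 and 9.37 h, and the 19 filled high-fat points between 1.54 and 9.83 h.

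The control calls were Psmb7 (amplitude 0.46 ± 0.07 SE, peak at 7.61 h, adjusted p = 7.02e-05), Psma1 (0.30 ± 0.06, 5.17 h, adjusted p = 0.00328), Psmd14 (0.20 ± 0.04, 6.80 h, adjusted p = 0.00379), Psme1 (0.28 ± 0.06, 7.70 h, adjusted p = 0.00944), Psma6, Psmc4 and Psmc3. Psmb7 had the largest control amplitude of the 42. Without control ZT20 replicate 2, Psma6 no longer passed (adjusted p = 0.0757), and without control ZT4 replicate 1 neither did Psmc4 (adjusted p = 0.0551). Psmc3 was lost without any of 9 mice, with adjusted p between 0.0507 and 0.117. Since each time was 1 day, the fit was repeated with the day as a random block, for which limma estimated a correlation of 0.16 within days: Psmb7 alone then passed (adjusted p = 0.00356), 1 of 42, while 2.82% of all genes did.

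The high-fat calls with the smallest p were Psmb3 (amplitude 0.27 ± 0.04, peak at 4.34 h, adjusted p = 0.000126), Psma2 (0.21 ± 0.04, 4.83 h, adjusted p = 0.000219), Psmd14 (0.24 ± 0.04, 5.49 h, adjusted p = 0.000512) and Psma6 (0.26 ± 0.05, 5.71 h, adjusted p = 0.000571). Larger amplitudes were fitted for Psme2, a subunit of the interferon-induced cap (0.36 ± 0.07, 8.35 h), and for Psmb8, the inducible counterpart of Psmb5 (0.35 ± 0.09, 9.83 h). The alpha ring held 6 of the 19 calls, all of its tested genes except Psma7, and the non-ATPase group held 5: Psmd1, Psmd8, Psmd11, Psmd12 and Psmd14. Whichever mouse was left out, 14 of the 19 calls stood; Psmg1 was lost without any of 37 mice (adjusted p between 0.0505 and 0.0800), Psmc4 without any of 9 (0.0508 to 0.0974), Psma5 and Psmd11 without any of 5 each, and Psmd8 without any of 4. With the day as a random block 9 calls stood (21.4%, against 5.65% of all genes): Psma2, Psma3, Psma6, Psmb3, Psmc3, Psmd1, Psmd12, Psmd14 and Psme2. Without the ZT16 mice of both diets, 13 members passed (31%, against 10.4% of all genes), 11 of them among the 19.

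A difference in rhythm between the diets, tested with time as a factor so that days cancel, passed in none of the 42 members (limma, adjusted p over all genes), against 2.11% of all genes tested; 9 members had an unadjusted p under 0.05. Closest were Psmb7 (adjusted p = 0.0598), whose amplitude was 0.46 on control and 0.20 ± 0.08 on high-fat, and Psmb3 (adjusted p = 0.0837), with 0.09 on control and 0.27 on high-fat. The larger number of calls on the high-fat diet is therefore not a tested difference in rhythm for any single member.

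The diets differed in level in 1 direction among the members that passed. Averaged over the 6 times, 9 of 42 members (21.4%) were lower on the high-fat diet, against 6.8% of all genes tested, and none was higher, against 4.7%. The 9 were Psma5, Psmb1, Psmb2, Psmb3, Psmc3, Psmd2, Psmd3, Psmd8 and Psme3, with differences between -0.20 and -0.14. The median over the 42 members was -0.07, beside -0.01 over all genes, and 34 members were negative, beside 55.1% of all genes. With cyclic loess or with arrays shifted to equal medians, 34 of 42 members were negative too, with medians of -0.06 and -0.06. Across all genes those scalings moved the split of lower and higher calls from 698 and 482 to 559 and 597 (cyclic loess) and to 586 and 554 (equal medians).

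The smallest p of the average difference were those of Psmb3 (-0.18 ± 0.03 SE, adjusted p = 0.000867, limma), Psmc3, an ATPase of the base (-0.18 ± 0.04, adjusted p = 0.00375), Psmb1, a structural beta subunit (-0.17 ± 0.05, adjusted p = 0.0106), and Psma5 of the alpha ring (-0.18 ± 0.05, adjusted p = 0.0146). Psmb1 was lower on high-fat at all 6 times, with differences from -0.28 at ZT8 to -0.09 at ZT0, none of which passed alone. Psmd2, Psmd3 and Psme3 lay near the threshold and were lost without any of 13, 31 and 18 mice, with adjusted p up to 0.0591, 0.0867 and 0.0644. Scaling ended these calls too, cyclic loess those of Psmd2 and Psme3 and equal medians that of Psmd3. With the mean of all probe sets, which takes in a probe set under the filter at 4.47, Psmd2 had an adjusted p of 0.558 in limma. Without the ZT16 mice, and so with fewer mice, none of the 9 passed, although all 9 kept their sign. Psmb3 was then at -0.08 (adjusted p = 0.228, limma), Psmd2 at -0.07 (0.457) and Psmd8 at -0.08 (0.321). Psmc3 stood at -0.12 (0.129) and Psmd3 at -0.10 (0.303). Nearer to their values over all mice were Psmb1 at -0.16 (0.0524), Psma5 at -0.15 (0.124), Psmb2 at -0.14 (0.144) and Psme3 at -0.16 (0.217). The median was then -0.04, with 32 of 42 members negative. In that fit 2 other members passed in limma, 4.76% of the 42 against 5.69% of all genes. They were Psmb10 as higher on high-fat (0.20 ± 0.06, adjusted p = 0.0255) and Psmf1 as lower (-0.21 ± 0.06, adjusted p = 0.0291).

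Marker genes of several cell types differed on average as well: 3 of 10 satellite cell markers (Pax7, Vcam1 and Calcr), 3 of 4 Schwann markers, 2 of 4 fibro-adipogenic markers and 1 of 8 myofibre markers were higher on high-fat, and none of 4 endothelial markers passed. Of 5 immune markers Cd68 was lower, and of 5 pericyte and smooth muscle markers Notch3 was higher and Pdgfrb lower. Their part in the proteasome differences was not tested.

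At ZT16, 9 of 42 members (21.4%) were lower on the high-fat diet, against 7.13% of all genes tested, and none was higher, against 6.13%. They were Psma6, Psmb3, Psmb6, Psmc3, Psmd1, Psmd2, Psmd3, Psmd8 and Psmd11, of which Psmb3, Psmc3, Psmd2, Psmd3 and Psmd8 were also among the 9 of the average. The median over the 42 was -0.23, beside -0.02 over all genes, and 35 members were negative, beside 53.4% of all genes; under cyclic loess 32 were negative with a median of -0.21, and with equal medians 35 with -0.21. In 16 members the 3 high-fat mice all lay below the 4 control mice, and in none above; over all genes tested these were 15.8% and 13.3%. ZT16 is the time with 3 high-fat mice, and more genes passed at it than at any of the other 5 times, 13.3% of all genes. Across all genes, scaling moved the split of lower and higher calls there from 731 and 629 to 654 and 737 (cyclic loess) and to 669 and 711 (equal medians).

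Marker genes also differed at ZT16. Of 10 tested satellite cell markers, Sdc4 and Calcr were higher on high-fat at ZT16 and Chrdl2 lower, and the mean over the list lay between 9.80 and 10.01 in control and 9.90 and 10.03 in high-fat mice. Of the 8 tested myofibre markers 1 was higher (Mylpf); the mean over all 10 on the array was 6.11 to 6.23 on control and 6.30 to 6.37 on high-fat. The other means, too, were over all markers on the array (15 immune, 7 endothelial and 7 fibro-adipogenic), those under the filter included. The immune mean was 5.47 to 5.68 on control and 5.55 to 5.63 on high-fat, with 0 of 5 tested passing. The endothelial mean was 6.16 to 6.24 and 6.39 to 6.54 (0 of 4), and the fibro-adipogenic mean 7.77 to 8.04 and 8.06 to 8.23 (0 of 4). The Schwann mean was 7.96 to 8.16 and 8.02 to 8.19 (0 of 4), and the pericyte and smooth muscle mean 9.56 to 10.64 and 9.40 to 9.92 (0 of 5). By the means of the myofibre, endothelial and fibro-adipogenic lists, which take in markers under the filter, all high-fat mice lay above all control mice. The part of these markers in the proteasome differences was not tested.

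Psmb3 differed most. Its control mice at ZT16 stood at 10.07, 10.15, 10.19 and 10.25 and its high-fat mice at 9.44, 9.47 and 9.63, a difference of -0.65 ± 0.09 SE (adjusted p = 5.14e-06, limma). Psmd11 stood at 9.64, 9.65, 9.74 and 9.85 on control and at 9.05, 9.19 and 9.33 on high-fat (-0.53 ± 0.11, adjusted p = 0.00126). Psmd1 stood at 8.81, 8.96, 8.97 and 9.11 on control and at 8.37, 8.40 and 8.41 on high-fat (-0.57 ± 0.12, adjusted p = 0.00153). In all 3 genes the groups did not overlap.

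For Psmc3 the control mice stood at 8.48, 8.55, 8.58 and 8.78 and the high-fat mice at 8.07, 8.08 and 8.20 (-0.48 ± 0.11, adjusted p = 0.00295). Psmd2, the large scaffold of the base that binds ubiquitin-like domains, stood at 8.67, 8.74, 8.75 and 8.93 on control and at 8.25, 8.31 and 8.34 on high-fat (-0.47 ± 0.11, adjusted p = 0.00491). Psmd8, a lid subunit, stood between 9.96 and 10.15 on control and at 9.47, 9.63 and 9.69 on high-fat (-0.44 ± 0.11, adjusted p = 0.00442). Here, too, every high-fat mouse was below every control mouse. The calls of Psmb3, Psmc3, Psmd1, Psmd2 and Psmd11 stood whichever mouse was left out, and Psmd8 was lost without high-fat ZT16 replicate 3 (adjusted p = 0.0517). With the mean of all probe sets of a gene in place of 1, however, Psmd11 (adjusted p = 0.0959, limma) and Psmd2 (0.0879) did not pass at ZT16. That mean takes in probe sets under the filter, for Psmd11 at 5.08 and 5.73 and for Psmd2 at 4.47. Their part in the loss was not tested.

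Psmb6, the catalytic subunit with caspase-like activity, was at -0.36 ± 0.10 at ZT16 (adjusted p = 0.0178), with control mice between 9.91 and 10.20 and high-fat mice at 9.63, 9.70 and 9.84. It was lost without control ZT16 replicate 2 (adjusted p = 0.0600) or 4 (0.0537) or high-fat ZT16 replicate 1 (0.101) or 2 (0.0563). Psma6 was lost under both scalings, and without control replicate 2 (0.115) or 4 (0.0965) or high-fat replicate 1 (0.112) or 3 (0.186) of that time. Psmd3 was lost without control replicate 2 (0.0729), 3 (0.117) or 4 (0.0551) or high-fat replicate 1 (0.144) or 3 (0.178). In Psmd3 the groups overlapped, with control mice at 6.92 to 7.38 and high-fat mice at 6.61, 6.64 and 7.00.

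**Figure D3:**
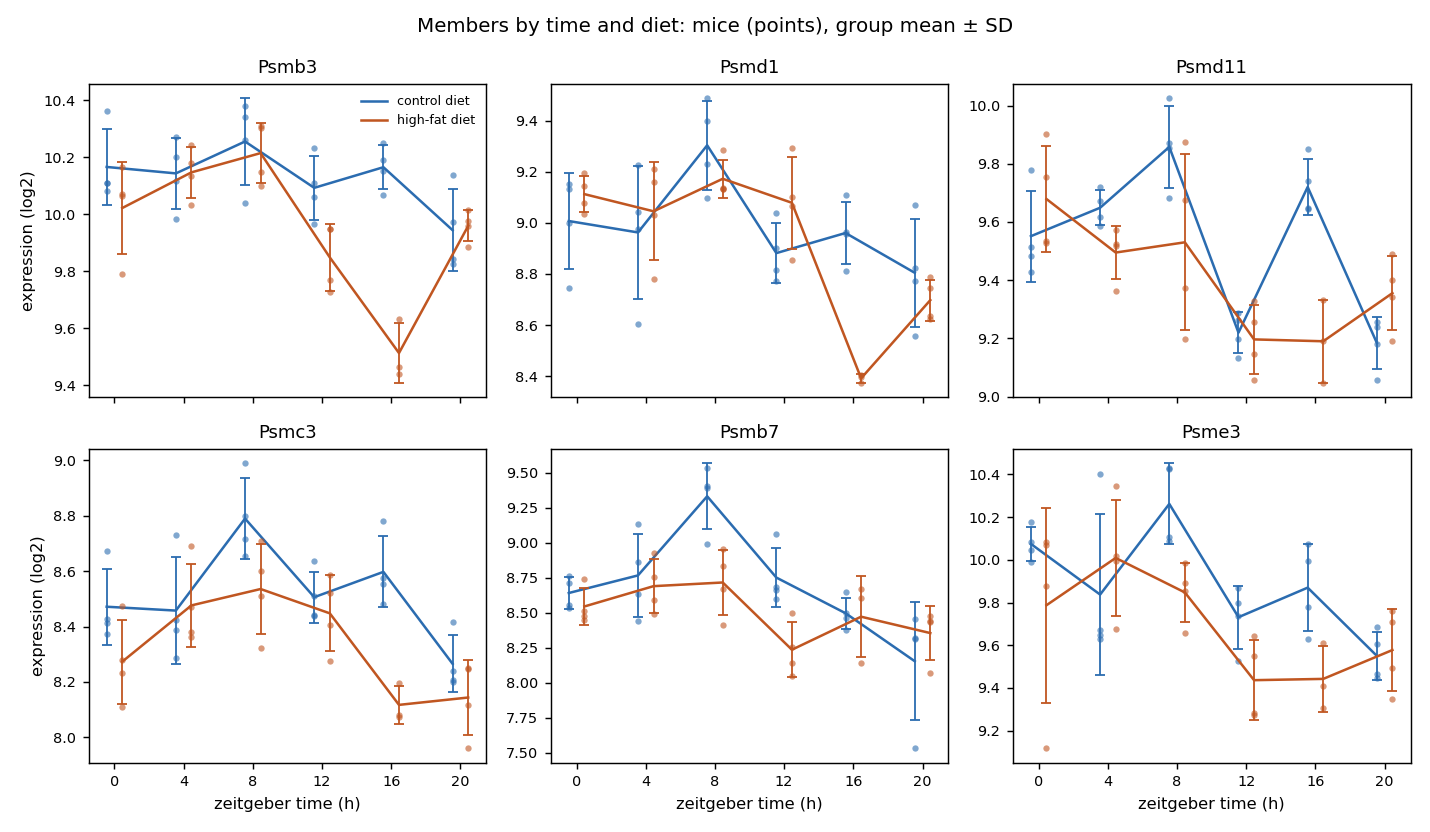
Expression (log2, y axis) of 6 members by zeitgeber time (h, x axis); points are mice, lines join group means and bars are SD, with control in blue and high-fat in orange. At ZT16 the high-fat mice of Psmb3 lie between 9.44 and 9.63 and the control mice between 10.07 and 10.25, while at ZT8 the groups of Psmb7 part, with 8.41 to 8.95 against 8.99 to 9.53.

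At the other times few or no members passed. At ZT8, Psmb7 alone was lower on the high-fat diet, 1 of 42 (2.38%) against 1.02% of all genes tested. Its high-fat mice stood at 8.41, 8.67, 8.83 and 8.95 and its control mice at 8.99, 9.40, 9.41 and 9.53, without overlap (-0.62 ± 0.16, adjusted p = 0.0361). This call was lost without control ZT8 replicate 2 (adjusted p = 0.0730), 3 (0.132) or 4 (0.0715) or high-fat ZT8 replicate 2 (0.0773), 3 (0.0501) or 4 (0.128). At ZT0, ZT4, ZT12 and ZT20 no member passed in limma; 6, 3, 12 and 4 members had an unadjusted p under 0.05, and 3.56%, 0.312%, 0.858% and 0.819% of all genes passed. Groups without overlap were few among the members at these times. High-fat mice all lay below the control mice in 3 members at ZT8 (Psmb7, Psme3 and Psmg2), in 4 at ZT12 (Psma2, Psma6, Psmb3 and Psmb7), in 1 at ZT4 (Psmd11), in 1 at ZT20 (Psmf1) and in 0 at ZT0, against 5.87%, 3.28%, 2.28%, 4.04% and 6.16% of all genes. They all lay above the control mice in 1 at ZT0 (Psmb10), 2 at ZT4 (Psma3 and Psmd5), 1 at ZT8 (Psmc5), 1 at ZT12 (Psme1) and 0 at ZT20, against 3.83%, 3.1%, 3.96%, 4.19% and 2.29%. At ZT4 the median difference of the members was 0.01, and 22 of 42 were positive.

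Whether the diet difference itself changed over the day was tested with an interaction, in which 6 of 42 members passed (14.3%), against 12.4% of all genes tested. They were Psmb3 (adjusted p = 0.00238), Psmd11 (0.00704), Psmd1 (0.0150), Psmc4 (0.0242), Psmd5 (0.0358) and Psmb6 (0.0456). Psmb3 differed by 0.00 at ZT4, -0.24 at ZT12, -0.65 at ZT16 and 0.01 at ZT20; its groups did not overlap at ZT12 and ZT16 and overlapped again at ZT20. Psmd11 differed by -0.33 at ZT8, where it did not pass and its groups overlapped. At ZT12 it differed by -0.02, and at ZT16, where it passed, by -0.53. Psmc4 ran from -0.20 at ZT0 and -0.22 at ZT16 to 0.30 at ZT20, and Psmd5 from -0.28 at ZT0 to 0.31 at ZT4, although neither passed at any single time. Psmd11 was lost with the mean of all probe sets (adjusted p = 0.288, limma), which takes in probe sets under the filter at 5.08 and 5.73. Psmb6 was lost without any of 25 mice (adjusted p up to 0.0986) and Psmd5 without any of 9 (up to 0.0630). Without the ZT16 mice no member passed, while 2.64% of all genes did.

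**Figure D4:**
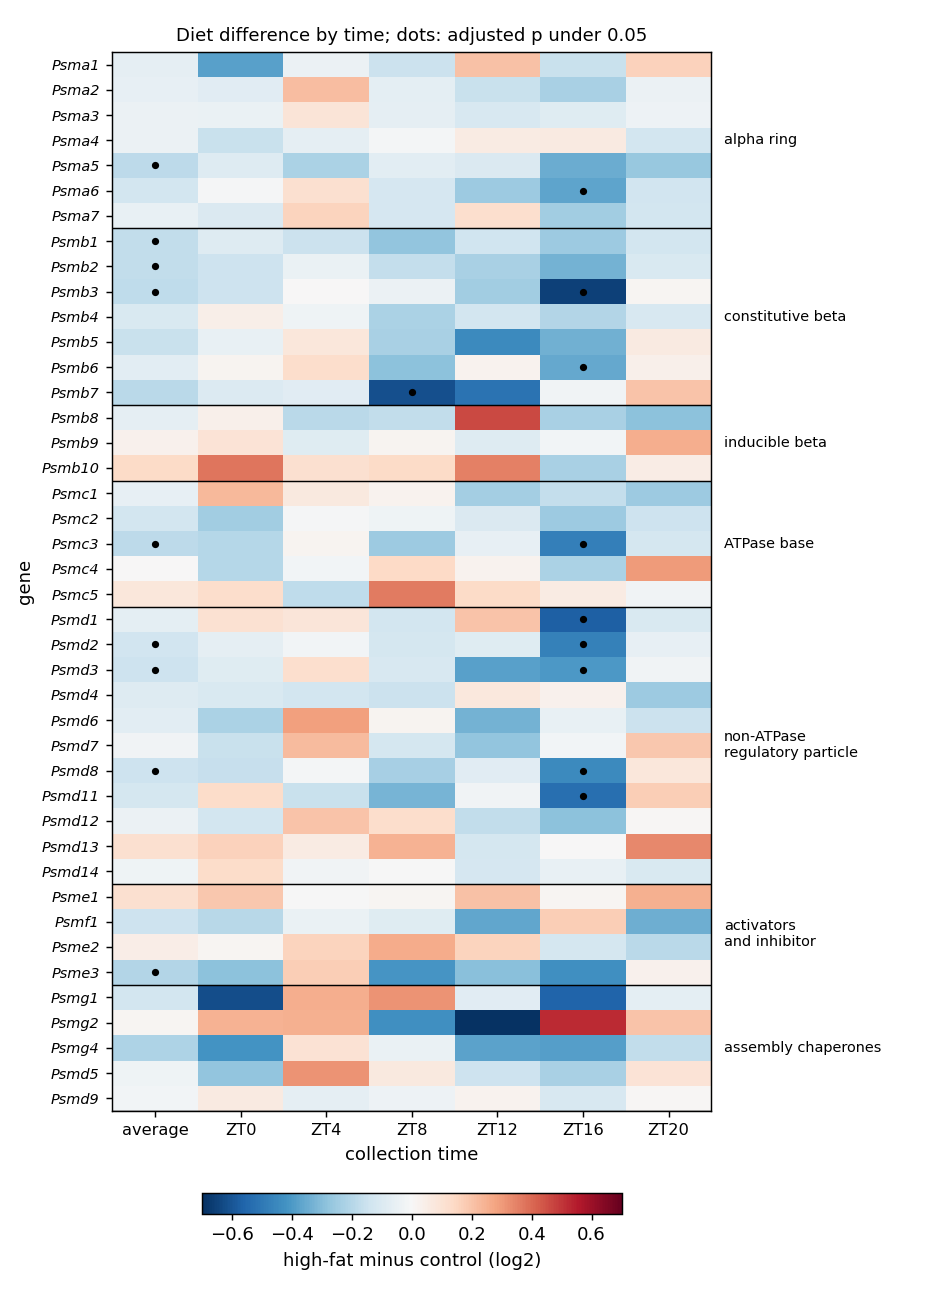
High-fat minus control difference (log2, colour) of the 42 tested members (rows, by subcomplex) on average and at each zeitgeber time (columns); blue is lower on the high-fat diet and dots mark an adjusted p under 0.05 in limma. The column of ZT16 holds 9 dots, all blue, the average column 9 and ZT8 a single dot, that of Psmb7.

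In the alpha ring, which gates the core, all 7 tested genes were negative on average, between -0.18 and -0.04, and 1 passed (Psma5). Psma5 was lower on high-fat at all 6 times; at ZT16 its control mice stood at 9.09, 9.15, 9.17 and 9.30 and its high-fat mice at 8.71, 8.84 and 8.94, without overlap (-0.35 ± 0.13, adjusted p = 0.0713). Psma6 was next by p of the average (-0.13 ± 0.05, adjusted p = 0.0765). Psma3, which had the narrowest span of the 42 tested members, ran between 10.56 and 10.98 over all 47 mice. Psma8, the testis-specific alpha subunit, lay between 4.67 and 5.04 in all mice, under the filter.

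In the beta rings, the 7 constitutive genes were all negative on average, between -0.19 and -0.07, and 3 passed; their mean deviation differed by -0.15 on average and by -0.31 at ZT16. At ZT16 all 7 were negative as well, from -0.65 (Psmb3) to -0.02 (Psmb7). Psmb2, a structural subunit, had a difference of -0.17 ± 0.05 on average (adjusted p = 0.0174) and at ZT16 stood at 10.08, 10.12, 10.14 and 10.14 on control and at 9.70, 9.79 and 9.88 on high-fat (-0.33 ± 0.13, adjusted p = 0.0763). The mean of the 3 tested inducible genes differed by 0.03 on average, with 1 of the 3 negative, and none passed.

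The catalytic subunits were set beside their inducible counterparts: Psmb6 with Psmb9, Psmb7 with Psmb10 and Psmb5 with Psmb8. On average over times, the constitutive partners were at -0.07 ± 0.04 (Psmb6, adjusted p = 0.246), -0.19 ± 0.07 (Psmb7, 0.0585) and -0.15 ± 0.06 (Psmb5, 0.0844). The inducible partners were at 0.03 ± 0.05 (Psmb9, adjusted p = 0.777), 0.13 ± 0.05 (Psmb10, 0.0698) and -0.06 ± 0.08 (Psmb8, 0.674). None of the 6 passed, and the difference within a pair was not tested. Psmb10 was furthest apart at ZT0, where the control mice stood at 7.17, 7.24, 7.40 and 7.40 and the high-fat mice at 7.61, 7.67, 7.69 and 7.72, without overlap (0.37, adjusted p = 0.0652). At ZT16 its order was turned, with control mice between 7.69 and 7.87 and high-fat mice at 7.45, 7.55 and 7.57 (-0.23, adjusted p = 0.235). Psmb8 ranged from 6.04 to 7.45 over the 47 mice, and Psmb11, the thymus-specific beta subunit, lay between 4.45 and 4.95, under the filter.

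**Figure D5:**
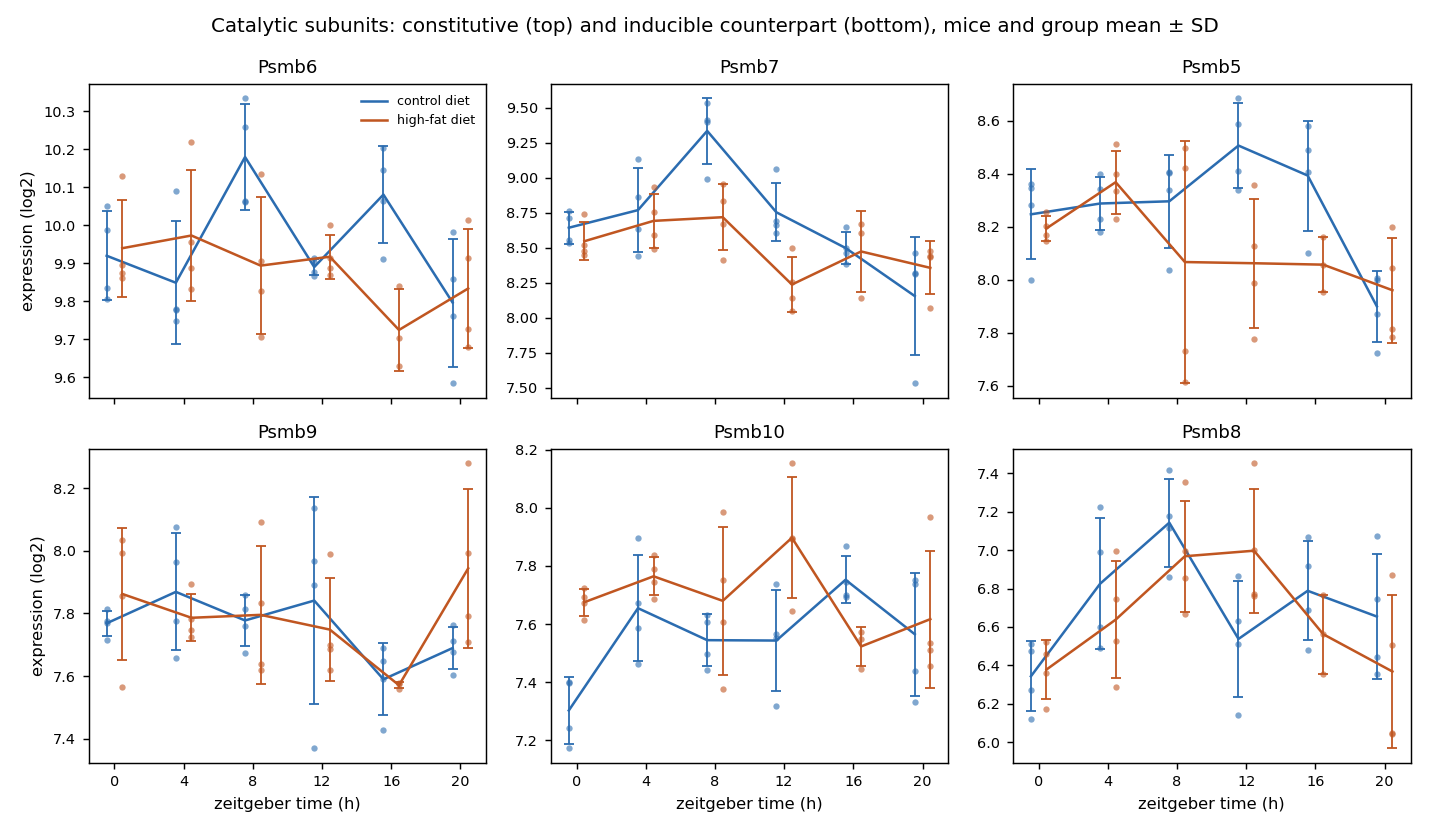
Expression (log2, y axis) of the 3 constitutive catalytic subunits (top) and their inducible counterparts (bottom) by zeitgeber time (h, x axis); points are mice, lines join group means and bars are SD. Psmb10 high-fat mice (orange) lie between 7.61 and 7.72 at ZT0, above the control mice (blue) at 7.17 to 7.40, and below them at ZT16.

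Among the ATPases of the base, Psmc3 alone passed on average and at ZT16; Psmc2 followed at -0.13 ± 0.06 on average (adjusted p = 0.176). Psmc4 was rhythmic on both diets, with amplitudes of 0.17 ± 0.05 (peak at 3.90 h) and 0.16 ± 0.05 (4.36 h), and Psmc3 with 0.16 ± 0.05 (9.18 h) and 0.22 ± 0.05 (7.16 h). Psmc5 went the other way at ZT8, with control mice at 8.06, 8.18, 8.27 and 8.31 and high-fat mice at 8.33, 8.33, 8.79 and 8.83, without overlap (0.37 ± 0.14, adjusted p = 0.169). Among the 11 non-ATPase genes, 10 were negative on average and 3 passed (Psmd2, Psmd3 and Psmd8), and 5 passed at ZT16, the most of any subcomplex. Psmd13 was the one above 0 on average (0.11 ± 0.07, adjusted p = 0.280); a pair of further probe sets annotated to both Sirt3 and Psmd13 was not used. Psmd4, the ubiquitin receptor, was at 0.03 at ZT16, and Psmd14 at -0.03 ± 0.04 on average (adjusted p = 0.698).

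The activators and the inhibitor did not move as 1 group. Psme3, the nuclear activator, was lower on high-fat on average (-0.20 ± 0.07, adjusted p = 0.0390), and at ZT8 its high-fat mice stood at 9.66, 9.85, 9.89 and 9.98 under control mice at 10.09, 10.11, 10.42 and 10.43 (-0.41 ± 0.16, adjusted p = 0.161). Psme1 and Psme2, the interferon-induced cap, were at 0.11 ± 0.06 (adjusted p = 0.277) and 0.05 ± 0.07 (0.735). Psmf1, an inhibitor in vitro, was at -0.14 ± 0.05 (adjusted p = 0.0612), and at ZT20 its high-fat mice stood at 7.34, 7.43, 7.53 and 7.58, all below the control mice at 7.59, 7.77, 7.85 and 8.03. Psme1 was rhythmic on control, as given above, and Psme2 and Psme3 on high-fat.

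Among the assembly chaperones none passed in a diet comparison at a single time or on average. Psmg1 and Psmg2, partners in building the alpha ring, differed by -0.56 ± 0.22 (adjusted p = 0.0901) and 0.52 (adjusted p = 0.258) at ZT16, with opposite signs. Psmg1 had low high-fat values at ZT0, at 6.97, 7.87, 7.99 and 8.21, against 8.16 to 8.60 on control (-0.62, adjusted p = 0.0859), and 8.61 to 8.91 at ZT4. Psmg2 had the second largest control amplitude of the 42 (0.40 ± 0.14), which did not pass (adjusted p = 0.110). Psmg4 was at -0.22 ± 0.08 on average (adjusted p = 0.0539). Psmd9, a chaperone of the base, was at -0.02 ± 0.05 (adjusted p = 0.843), and Psmg3 lay between 5.21 and 6.29 in all mice, with a mean under the filter.

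Other probe sets of the members were looked at beside the ones used. There were 27, of 17 members, and 14 of them lay above the filter. Of these 14, the average diet difference had the same sign as that of the probe set used in 9, and the difference at ZT16 in 12. A second probe set of Psmb3 was at -0.31 at ZT16, that of Psme3 at -0.71, and 2 of Psmd11 both at -0.38. A second probe set of Psmg2, under the filter, was at -1.52 at ZT16 where the probe set used was at 0.52, so the direction for Psmg2 is uncertain. Psmf1, too, had probe sets of either sign: its second above the filter was at 0.03 on average, where the one used was at -0.14.

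Within groups, the members varied together from mouse to mouse only weakly. After removal of the group means, the median correlation over all 861 pairs of members was 0.10 across the 47 arrays, with 68.9% of pairs above 0, beside 0.01 and 52.2% over all pairs of genes tested. It was 0.23 within the constitutive beta genes, 0.42 within the 3 inducible ones (3 pairs) and -0.04 within the chaperones. Psmb2 followed the mean of the other members most closely (r = 0.75), before Psmb4 (0.64), Psma7 (0.63) and Psme3 (0.62), and Psma3 ran against it (-0.34). The values come from the same arrays and share each array's RNA quality and scaling.

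Among 12 tested proteasome partners without a Psm symbol, 1 was lower on high-fat on average, the shuttle factor Ubqln4 (-0.22 ± 0.06, adjusted p = 0.0204), and none was higher, where 6.8% and 4.7% of all genes were. At ZT16, 4 were lower (all genes 7.13%), with a median of -0.36 over the 12, and none was higher (6.13%): Usp14, the deubiquitinase bound to the base (-1.08 ± 0.29, adjusted p = 0.0106), Sem1, a small lid subunit (-0.49 ± 0.12, adjusted p = 0.00475), Ubqln4 (-0.51 ± 0.16, adjusted p = 0.0318) and Ubqln2 (-0.42 ± 0.14, adjusted p = 0.0374). No partner was called rhythmic on either diet in limma. Of 8 tested genes of the NFE2L1 and NFE2L2 axis, which controls subunit transcription, Mafk was lower on average (-0.06 ± 0.02, adjusted p = 0.0460) and Nploc4 at ZT16 (-0.42 ± 0.14, adjusted p = 0.0446); Nfe2l1 itself was at -0.11 ± 0.06 on average (adjusted p = 0.272) and at -0.47 ± 0.16 at ZT16 (adjusted p = 0.0517). Nfe2l2 was rhythmic on high-fat with a peak at 17.9 h (amplitude 0.18 ± 0.05, adjusted p = 0.0470).

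Of 6 tested genes of ubiquitin and its activation, the conjugating enzyme Ube2d1 was higher on high-fat on average (0.18 ± 0.06, adjusted p = 0.0434), and none passed at ZT16. Of 9 tested ubiquitin ligases of muscle atrophy, none passed on average, and 2 were higher at ZT16 (all genes 6.13%), Cblb (0.88 ± 0.17, adjusted p = 0.000325) and Fbxo31 (0.55 ± 0.18, adjusted p = 0.0395). Of 6 tested genes of antigen processing and MHC class I, which receive the peptides made by immunoproteasomes, 3 were higher on average (all genes 4.7%) and none lower (6.8%): H2-D1 (0.13 ± 0.03, adjusted p = 0.00257), Pdia3 (0.26 ± 0.07, adjusted p = 0.0113) and H2-K1 (0.07 ± 0.02, adjusted p = 0.0179). At ZT16, H2-D1 (0.26 ± 0.08, adjusted p = 0.0186) and the interferon regulator Irf1 (0.54 ± 0.13, adjusted p = 0.00421) were higher.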

How the data were processed

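RNA was amplified and hybridised to 1 array per mouse, per the labels' protocols (25 ng RNA, 17 cycles). The authors deposited log2 values per probe set, made with RMA per the submitters' processing notes, and these were used without rescaling. Of 45141 probe sets, 28898 had 1 gene symbol, 551 several and 15692 none; only the first kind was used. Each gene took its probe set of highest mean, and genes under the 40th percentile of gene means (5.80) were left out. Groups were compared with limma 3.58.1 in R 4.3.3 (lmFit, eBayes with trend) and Benjamini-Hochberg adjustment over 10258 genes at 0.05. Rhythms were cosines of 24 h, and diet differences were contrasts of group means. The number of mice per group limits precision. On simulated data with 200 shifted genes, 27.0% of those shifted by 0.4 were recovered at ZT16, and 95.0% in the average. With a shift of 0.2, nearer the average differences called among the members, 56.5% were recovered in the average and 1% at ZT16. The simulation shifted 200 of 10258 genes with independent noise, whereas 1360 genes passed at ZT16 and 1180 in the average. Since the adjustment depends on how many genes differ, these shares need not hold for the real data. Members were named by rule: the 4 of smallest p among those past the threshold in each comparison (3 at a single time), in each subcomplex the 2 of smallest p of the average diet difference and the 2 of largest amplitude, the catalytic pairs, and members under the filter. Other members and list genes were named after their values were seen. The members and gene lists were chosen with earlier results of these data known. Alternatives covered scaling, filter, probe set choice, array weights, day, replicate block, ZT16 and each mouse.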

Additional observations from a re-analysis of the deposited data

Results flagged for a closer look

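In 4 of 88 sets of 4 mice, 1 mouse's mean over a subcomplex stood apart from the other 3; chance alone is set to flag about 1 set in 20. For the constitutive beta genes, control ZT12 replicate 3 stood at 0.0561, where the others lay between 0.139 and 0.141. For the ATPases, high-fat ZT20 replicate 1 stood at -0.0983, against -0.251 to -0.230. For the non-ATPase genes, control ZT20 replicate 4 stood at 0.0710, against -0.160 to -0.133, and for the assembly chaperones control ZT16 replicate 3 stood at 0.131, against -0.0135 to 0.00506.

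The diet difference changed between the 6 times in 6 of 42 members (14.3%), near the 12.4% of all genes, by limma's interaction test over all genes: Psmb3 (adjusted p = 0.00238), Psmd11 (0.00704), Psmd1 (0.0150), Psmc4 (0.0242), Psmd5 (0.0358) and Psmb6 (0.0456).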

How the results depend on the processing

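With array weights, calls among the members rose to 12 (control rhythm), 17 (average diet difference), 5 (ZT8), 16 (ZT16), 11 (interaction), 2 (rhythm difference) and 1 (ZT0), while the shares of all genes rose to 15.3%, 15.4%, 7.56%, 26.1%, 21.4%, 4.2% and 4.18%; the cause was not tested. With the day as a random block, 1 control and 9 high-fat rhythms stood. Without the ZT16 mice, 2 members passed on average (4.76%, all genes 5.69%), 1 lower and 1 higher and none of the 9. In the interaction 0 passed, against 2.64% of all genes. The rhythm difference gave 1 call under cyclic loess, equal medians or the mean of all probe sets (all genes 2.33%, 2.16% and 1.44%). With contrasts of group means it gave 2 (all genes 4.7%). ZT0 gave 1 call under cyclic loess and equal medians (all genes 3.58% and 3.55%). ZT12 and ZT20 gave 1 each with the mean of all probe sets (all genes 0.985% and 0.702%).

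Leaving out each mouse in turn gave 5 to 8 control and 14 to 22 high-fat rhythms, 15 to 21 and 20 to 25 members differing over time, 0 to 1 differing in rhythm, 6 to 13 on average, 0 to 1 at ZT0, 0 to 2 at ZT8, 6 to 10 at ZT16, 4 to 7 in the interaction and 0 at ZT4, ZT12 and ZT20. The rhythm difference gave 1 call without control ZT0 replicate 2, ZT4 replicate 4, ZT8 replicate 1 or ZT20 replicate 3, or high-fat ZT0 replicate 4, ZT12 replicate 2 or ZT20 replicate 4. ZT0 gave 1 without control ZT0 replicate 1, high-fat ZT0 replicate 3 or high-fat ZT20 replicate 3. ZT8 gave 2 without high-fat ZT8 replicate 1.

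The replicate numbers did not pair the mice: deviations of same-numbered mice had a median correlation of -0.02, and 0 of 47 arrays correlated best with their own number. With the replicate block, 6 control rhythms (14.3%, all genes 9.22%) and 17 high-fat rhythms (40.5%, all genes 15%) passed. On average 6 members passed (14.3%, all genes 10.2%), at ZT16 8 (19%, all genes 11.4%) and at ZT8 1 (2.38%, all genes 1.52%). In the interaction 4 passed, 9.52% of members and 9.52% of all genes. Scaling moved the split of all lower and higher genes at ZT0 from 229 and 136 to 163 and 204 (cyclic loess) and 173 and 191 (equal medians), at ZT12 from 40 and 48 to 56 and 40 (equal medians), and at ZT20 from 53 and 31 to 39 and 40 and to 38 and 52.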
